A study of Mus musculus with 186 samples.

Results

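A set of 6 receptor genes linked to cyclic AMP was followed across the brains of Akap11 mutant mice: the adenosine receptor genes Adora1 and Adora2a and the orphan receptor genes Gpr3, Gpr6, Gpr12 and Gpr52. They were taken by name from a table of 28338 gene symbols, in which 5 of the 6 had a row. Gpr52 was not analysed here. Bulk RNA-seq had been made from 186 libraries in 36 groups, of which 30 held 5 libraries and 6 held 6. The groups cover 6 dissected regions: striatum, hippocampus, thalamus, substantia nigra, and the prefrontal and somatosensory cortices. Tissue was taken at 4 weeks (96 libraries) and 12 weeks of age (90 libraries). The 3 genotypes were Akap11 -/- (KO), Akap11 +/- (HET) and wild type (WT). Akap11 encodes an anchoring protein that holds protein kinase A (PKA), the kinase that cyclic AMP switches on, at particular sites in the cell. The question put to the receptor genes was in which regions they are read, and whether their levels differ with the loss of 1 or both copies of Akap11. The sources used here do not give strain, sex, the design of the mutant allele or whether the libraries of a group came from separate mice, so a p-value measures the spread between these libraries, which may be technical.

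The receptor made from Adora1 couples to inhibitory G proteins and lowers cyclic AMP, and it is found on nerve terminals through much of the brain. The receptor made from Adora2a couples to stimulatory G proteins and raises cyclic AMP, and it is a defining receptor of the indirect-pathway projection neurons of the striatum, where it opposes the dopamine D2 receptor. Gpr3, Gpr6 and Gpr12 encode a small family of related orphan receptors that raise cyclic AMP without an added ligand. Gpr6 is known for its striatal expression.

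In the GENCODE M21 annotation of GRCm38, Adora1 is at chr1:134199223-134235431 on the minus strand, Adora2a at chr10:75316877-75334784 on the plus strand, Gpr3 at chr4:133209340-133212536, Gpr6 at chr10:41069977-41072285 and Gpr12 at chr5:146582398-146585239, the last 3 on the minus strand. Each value below covers the whole gene, and nothing in the table separates exons or transcripts. Promoter sequence is shown for Adora1, the gene that changed in the KO, and for Gpr6, the orphan receptor gene with the strongest restriction to one region. Each line is the 250 bases before a RefSeq start, credited to RefSeq on GRCm38.p6 and written on the gene's own strand. Capitals in Adora1 mark a pair of overlapping matches to GCGGGGGCG, a site type of the EGR factors, both on the opposite strand and starting 24 and 18 bases before the start. Capitals in Gpr6 mark TGACGTCA, the palindrome bound by the cyclic AMP response factor CREB, 78 bases before the start, and a CCAAT box on the opposite strand 129 bases before it.
Adora1, chr1:134235458-134235707, minus strand: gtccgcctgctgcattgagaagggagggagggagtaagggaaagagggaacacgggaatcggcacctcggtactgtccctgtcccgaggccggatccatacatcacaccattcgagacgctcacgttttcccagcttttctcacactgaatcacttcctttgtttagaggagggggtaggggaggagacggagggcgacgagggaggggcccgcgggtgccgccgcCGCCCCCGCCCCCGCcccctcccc
Gpr6, chr10:41072291-41072540, minus strand: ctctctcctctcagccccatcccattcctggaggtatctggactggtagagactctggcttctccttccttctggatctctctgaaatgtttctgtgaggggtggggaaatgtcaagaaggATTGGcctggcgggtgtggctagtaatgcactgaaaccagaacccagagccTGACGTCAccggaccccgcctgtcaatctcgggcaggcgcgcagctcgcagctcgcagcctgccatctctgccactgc
Of 32851 RefSeq promoter windows of the same length, 2.57% hold GCGGGGGCG and 1.55% hold TGACGTCA on either strand. In the Gpr3 window TGACG, the shorter form of the CREB site, occurs 196 and 40 bases before the start, and 17.8% of windows hold it. CCAAT, a motif that 33.8% of windows hold, occurs on the opposite strand 61 bases before the start in the Gpr3 window and 145 bases before it in the Gpr12 window. These are letter matches and not measured binding.

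The libraries held 20.8 to 73.3 M expected counts each. Levels are given as CPM (counts per M, where M is 1e6), scaled over all libraries by the trimmed mean of M-values (TMM). The striatal label held in all 30 striatal libraries, where the striatal projection neuron score, the mean log2(CPM + 1) of 7 marker genes, was 8.89 to 10.4 against at most 7.40 elsewhere. Akap11 itself was at 11.7 to 24.5 CPM in the KO libraries, 90.9 to 222 CPM in the HET libraries and 176 to 436 CPM in the WT libraries, except that the library labelled WT 92 of 4-week substantia nigra stood at 44.8 CPM. In 4-week striatum 4 libraries carried high levels of cortical and hippocampal excitatory neuron markers, namely KO 51, KO 161, KO 163 and WT 92, where the number is the replicate number in the labels. The member and pathway results between KO and WT in 4-week striatum are therefore given with and without them.

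The 5 genes fell into sharply different regional patterns in the WT libraries. Adora2a and Gpr6 were striatal, Adora1 was read everywhere and most in somatosensory cortex and hippocampus, Gpr12 was highest in thalamus, and Gpr3 was low in every region. When striatum was set against the averaged other 5 regions, edgeR's quasi-likelihood test with Benjamini-Hochberg adjustment called 6 of the 10 tests of member and age at an adjusted p under 0.05, 5 of them higher in striatum. Of all genes tested, 52.9% were called in that comparison at 4 weeks and 67.3% at 12 weeks, with 26.8% and 32.5% higher in striatum. Over all 15 pairs of regions at both ages, 95 of 150 tests of the members were called, against 53.4% of all tests of all genes.

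**Figure D1:**
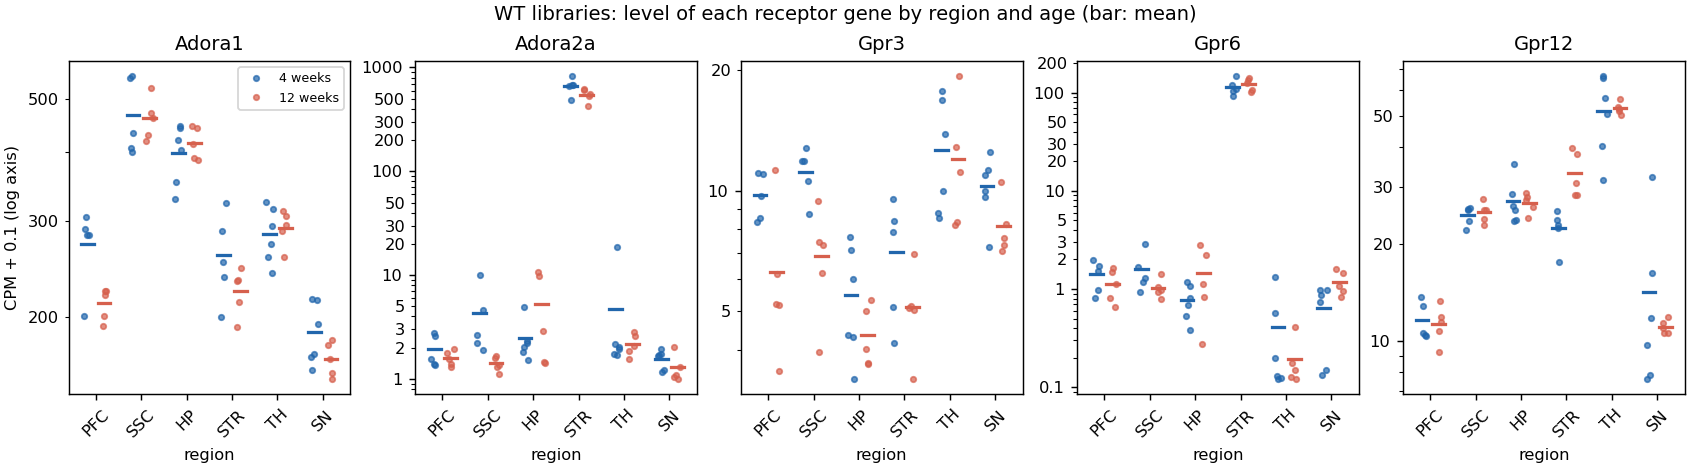
Level of each receptor gene in the WT libraries of the 6 regions at 4 weeks (blue) and 12 weeks (red), as CPM plus 0.1 on a log axis, with 1 point per library and a bar at the mean. Adora2a averages 670 and 548 CPM in striatum and at most 5.14 CPM elsewhere, and Gpr6 averages 114 and 121 CPM in striatum and at most 1.49 CPM elsewhere.

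Per kilobase of its longest annotated transcript, Adora2a was the most abundant of the 5 genes in WT striatum. It stood at 258 ± 45.5 CPM per kilobase at 4 weeks and 211 ± 29.5 at 12 weeks (SD, n = 5). Gpr6 followed at 63.8 ± 11.5 and 67.8 ± 9.54, and Adora1 at 52.3 ± 9.50 and 45.004 ± 4.24. Gpr12 stood at 10.04 ± 1.31 and 14.9 ± 2.45, and Gpr3 at 2.75 ± 0.904 and 1.99 ± 0.498 CPM per kilobase.

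Adora1 was read in every region. At 4 weeks its WT level was 467 ± 74.5 CPM in somatosensory cortex (SD, n = 5), 399 ± 48.3 in hippocampus (n = 6), 284 ± 32.6 in thalamus (n = 6), 272 ± 40.8 in prefrontal cortex (n = 5), 260 ± 47.2 in striatum (n = 5) and 188 ± 24.3 in substantia nigra (n = 6). The neighbours in this order that edgeR called were hippocampus above thalamus (adjusted p = 0.00231) and striatum above substantia nigra (adjusted p = 0.00107). Somatosensory cortex and hippocampus were not called apart (0.25 on the log2 scale, adjusted p = 0.134), and neither were thalamus, prefrontal cortex and striatum as neighbours.

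At 12 weeks the order was the same apart from striatum, at 224 ± 21.1 CPM, now just above prefrontal cortex at 212 ± 14.3 CPM (SD, n = 5 each), a pair not called apart (edgeR adjusted p = 0.231). Thalamus was above striatum by 0.36 on the log2 scale (edgeR adjusted p = 4.13e-05). Against the averaged other 5 regions, WT striatum was lower in Adora1 by a log2 difference of -0.21 ± 0.11 (SE) at 4 weeks, which was not called (edgeR adjusted p = 0.102; called without WT 92 of striatum at -0.29, adjusted p = 0.0351), and of -0.35 ± 0.06 at 12 weeks, which was called (edgeR adjusted p = 2.28e-06).

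In 12-week striatum the loss of both Akap11 copies came with a fall of Adora1 to 52.7% of its WT level. The WT libraries stood at 192, 214, 233, 234 and 246 CPM. The HET libraries stood at 185, 203, 226, 227 and 234 CPM. The KO libraries stood at 99.0, 115, 117, 123 and 135 CPM. Every KO library lay below every WT and every HET library, while the HET and WT libraries overlapped almost fully. KO against WT gave a log2 fold change of -0.94 ± 0.08 (SE, n = 5 against 5), with an edgeR adjusted p of 4.49e-06. Against HET it was -0.88 ± 0.08 (edgeR adjusted p = 1.01e-05), and HET against WT gave -0.06 ± 0.08, not called. Of 15622 genes tested in the KO and WT comparison, 4.42% were called, 2.6% as lower, and 2.66% had every KO library below every WT library. Adora1 was the 1 member called of 5 in that set.

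**Figure D2:**
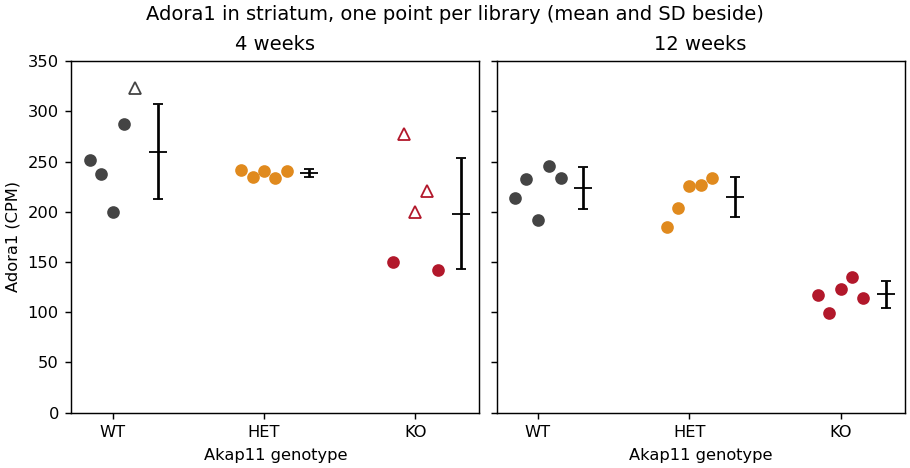
Adora1 in each striatal library by Akap11 genotype and age, in CPM on an axis from 0, with the mean and SD beside each group. Open triangles mark the 4 libraries of 4-week striatum with a cortical marker score above 4; at 12 weeks the 5 KO libraries sit between 99.0 and 135 CPM, under all 10 others.

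The cortical and hippocampal excitatory score, the mean log2(CPM + 1) of 6 marker genes, was low in all 12-week striatal libraries. It lay at 0.296 to 0.846 in KO and 0.372 to 0.576 in WT. The striatal projection neuron score was 9.36 to 9.60 in KO and 9.48 to 9.96 in WT. Of its 7 genes, 4 were lower in KO than in WT (Rgs9, Rarb, Bcl11b and Pde10a), with a median log2 fold change of -0.33 over the list against 0.01 over all genes. The direct-pathway neuron score, the mean over 6 genes, was higher in KO, at 6.33 to 6.46 against 5.95 to 6.24 in WT and 6.09 to 6.25 in HET. Of its genes 2 were higher, the neuropeptide genes Pdyn (1.03 ± 0.23, SE, edgeR adjusted p = 0.0157) and Tac1 (0.43 ± 0.09, adjusted p = 0.0129), with a median of 0.15 over the list, and the receptor gene Drd1 was at -0.07 ± 0.07, not called. In bulk tissue, fewer cells of a type and less RNA per cell cannot be told apart, and the part of these markers in the Adora1 result was not tested.

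Adora1 overlaps Mybph, a muscle myosin-binding protein gene on the other strand. The sources used here do not say whether the counting used the strand. Mybph averaged 0.725 ± 0.228 CPM in WT and 0.208 ± 0.0865 CPM in KO 12-week striatum (SD, n = 5), a log2 fold change of -1.80 ± 0.33 (edgeR adjusted p = 0.00456). Without strand, reads of the overlapping pair cannot be told apart, so the Mybph value is uncertain.

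The fall of Adora1 was larger in striatum than in the other regions at 12 weeks. The KO effect in striatum minus the mean KO effect in the other 5 regions was -0.99 ± 0.10 on the log2 scale (SE), with an edgeR adjusted p of 2.84e-12, and 3.11% of all genes were called in that test, against 3.52% at 4 weeks. It was the 1 test called of the 10 of member and age. The 4-week test of Adora1 was not called with all libraries. Without the 4 libraries high in cortical markers it gave -0.65 ± 0.21 (SE, edgeR adjusted p = 0.168), also not called. That setting was chosen after the data were seen. Outside striatum Adora1 showed log2 fold changes of KO against WT from -0.03 in hippocampus to 0.14 in thalamus at 12 weeks, and from -0.41 in prefrontal cortex to 0.17 in thalamus at 4 weeks, none of them called.

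In 4-week striatum Adora1 pointed the same way but was not called. The WT libraries stood at 200.0, 237, 252, 287 and 323 CPM. The HET libraries lay close together at 233, 234.8, 241, 241 and 242 CPM. The KO libraries stood at 142, 149.97, 199.8, 221 and 277 CPM. The KO and WT groups overlapped, with 3 of 5 KO libraries under the lowest WT library, KO 163 only just. KO differed from WT by -0.39 ± 0.16 on the log2 scale (SE, n = 5 against 5; edgeR adjusted p = 0.209), and 3.35% of the 15425 genes tested were called. No member of 5 was called in that set by edgeR or by DESeq2. Adora1 alone of the 5 had an unadjusted edgeR p under 0.05, as did 2755 of the 15425 genes.

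The 4-week striatal KO libraries split by their cortical markers. KO 932 and KO 12, the pair lowest in Adora1, had cortical and hippocampal scores of 0.546 and 0.445. KO 163, KO 51 and KO 161, at 199.8, 221 and 277 CPM of Adora1, had scores of 5.25, 5.77 and 6.28. WT 92, the highest WT library in Adora1, had a score of 5.10, while the other 4 WT libraries had 0.467 to 1.53. In 4-week WT libraries Adora1 was at 467 CPM in somatosensory cortex, 272 in prefrontal cortex and 260 in striatum, the last pair not called apart, and the part of cortical RNA in the striatal values was not tested. With the score as a covariate the log2 fold change was -0.63 ± 0.11 (edgeR adjusted p = 0.00475). Without the 4 libraries, which leaves 2 KO against 4 WT, it was -0.75 ± 0.11 (edgeR adjusted p = 0.00426), with 2.65% of all genes called. Against HET the log2 fold change was -0.27 with all libraries (edgeR adjusted p = 0.372), -0.56 with the covariate (adjusted p = 0.0158) and -0.72 without the 4 libraries (adjusted p = 0.00473). Without them all 4 markers of cholinergic interneurons were called higher in KO than in WT, with a median of 0.54. Of 6 direct-pathway genes 2 were called, Pdyn and Tac1, higher by 0.87 and 0.81. Of 5 indirect-pathway markers 1 was called, Ptprm, which was lower (-0.36, edgeR adjusted p = 0.02), with a median of -0.06 over the list. Drd2 (0.27) and Penk (0.34) pointed up, and Grik3 (-0.09) and Sp9 (-0.06) were near 0, none called. Of 4 astrocyte markers 1 was called, Aqp4, which was lower (-0.70, edgeR adjusted p = 0.00561), with a median of -0.18. None of the 7 projection neuron genes was called.

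**Figure D3:**
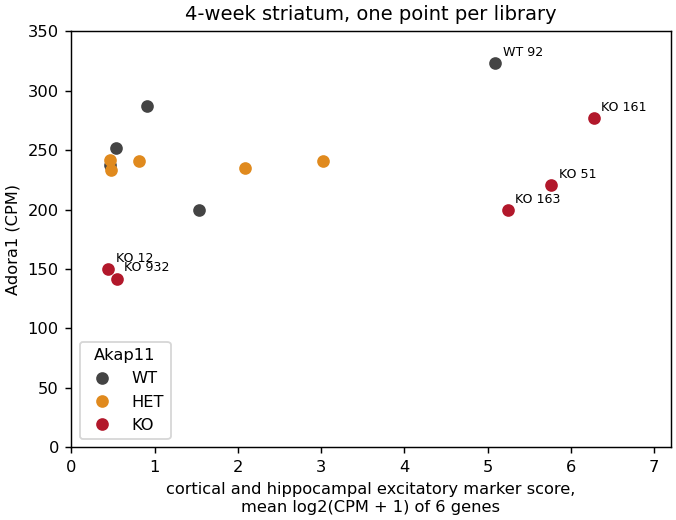
Adora1 in CPM against the cortical and hippocampal excitatory marker score, the mean log2(CPM + 1) of 6 genes, in the 15 libraries of 4-week striatum, coloured by Akap11 genotype. KO 932 and KO 12 sit at scores under 1 with 142 and 149.97 CPM, and the other 3 KO libraries sit at scores over 5 with 199.8 to 277 CPM.

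The KO effect on Adora1 in striatum was not shown to differ between the ages. The log2 fold change at 12 weeks minus that at 4 weeks was -0.56 ± 0.19 (unadjusted p = 0.00549, edgeR adjusted p = 0.561), and -0.19 ± 0.14 without the 4 libraries, a setting chosen after the data were seen. Across the members and regions, 0 of 29 such tests were called by edgeR or by DESeq2, and 0 of 98669 tests of all genes were called by edgeR. Of the 29 tests, 2 had an unadjusted p under 0.05. Among all genes 468 of 16358 (somatosensory cortex) to 1261 of 16809 (substantia nigra) had such a p.

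Adora2a was read almost only in striatum. Its WT level there was 670 ± 118 CPM at 4 weeks and 548 ± 76.7 CPM at 12 weeks (SD, n = 5). No other region averaged more than 5.14 CPM in WT at either age. On the log2 scale it exceeded the averaged other 5 regions by 8.02 ± 0.34 (SE) at 4 weeks and 8.18 ± 0.21 at 12 weeks, with edgeR adjusted p-values of 7.39e-19 and 1.12e-23. Over all genotypes the 30 striatal libraries ranged from 305 to 898 CPM and the 156 others from 0.663 to 85.2 CPM. Below striatum the neighbouring regions were not called apart, except hippocampus above thalamus at 12 weeks (edgeR adjusted p = 0.0034). The medians of that pair were 2.81 and 1.98 CPM. Hippocampal WT 1 and WT 5 stood at 10.5 and 9.65 CPM, with striatal projection neuron scores of 5.64 and 5.73. The part of striatal RNA in this difference was not tested.

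Adora2a was not called between genotypes in striatum. At 12 weeks the WT libraries stood at 425, 535, 558, 609 and 614 CPM and the KO libraries at 432, 476, 522, 549 and 556 CPM, and the groups overlapped over most of their range. Their log2 fold change was -0.13 ± 0.09 (SE, edgeR adjusted p = 0.577), while Adora1 in the same libraries fell by 0.94.

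At 4 weeks the WT libraries stood at 491, 669, 679, 685 and 824 CPM of Adora2a. The KO libraries were spread from 305 (KO 161), 306 (KO 51) and 473 (KO 163) to 654 (KO 932) and 898 CPM (KO 12). The 3 KO libraries with high cortical markers were thus the lowest, and the other KO pair lay within or above the WT range. The log2 fold change was -0.34 ± 0.24 (edgeR adjusted p = 0.499), and 0.20 ± 0.18 without the 4 libraries, so that its direction turned.

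Outside striatum a few libraries held Adora2a well above their group. Of 156 libraries, 14 were at 5 CPM or more: 8 of 31 in hippocampus, 5 of 31 in somatosensory cortex, 1 of 31 in thalamus and none in prefrontal cortex or substantia nigra. The highest were the somatosensory libraries HET 93 and HET 162 at 4 weeks, at 85.2 and 36.03 CPM, and HET 5 at 12 weeks, at 33.1 CPM. These 3 also held 15.4, 7.69 and 6.52 CPM of Gpr6, and striatal projection neuron scores of 7.40, 6.67 and 6.58. The somatosensory libraries under 5 CPM had scores of 5.23 to 5.67. In hippocampus the 8 libraries had scores of 5.27 to 6.01 and the others 4.56 to 5.26. The thalamic library WT 914 at 4 weeks had 18.5 CPM of Adora2a with only 0.475 CPM of Gpr6 and a score of 4.80. Its mean log2(CPM + 1) over the markers of indirect-pathway neurons was 4.96, the highest of the 4-week WT thalamic libraries (median 3.59).

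**Figure D4:**
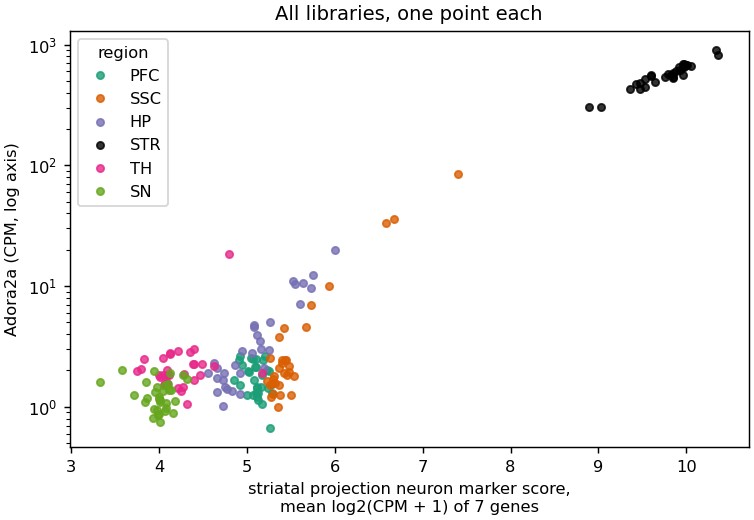
Adora2a in CPM on a log axis against the striatal projection neuron score, the mean log2(CPM + 1) of 7 genes, in all 186 libraries coloured by region. The striatal libraries lie at scores of 8.89 to 10.4, and 3 somatosensory libraries at scores of 6.58 to 7.40 stand between them and the rest.

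No difference in Adora2a between genotypes outside striatum was called by edgeR. In 4-week hippocampus the KO libraries stood at 2.31, 4.60, 10.4, 10.9 and 12.3 CPM and the HET libraries at 1.27, 1.47, 1.67, 1.90 and 2.10 CPM. The WT libraries ranged from 1.41 through a median of 2.01 to 4.79 CPM. The KO libraries lay above all HET libraries and overlapped the WT ones. Between KO and HET in this set 2867 of 16429 genes had an unadjusted edgeR p under 0.05, and 1 was called. The share of all genes without overlap was not counted there. KO against WT gave a log2 fold change of 1.79 ± 0.38 (SE, n = 5 against 6), not called by edgeR (adjusted p = 0.676) and called by DESeq2 (adjusted p = 0.00264). The 3 KO libraries over 10 CPM had striatal scores of 5.53 to 5.76, against at most 5.09 in WT. In somatosensory cortex HET against WT gave 2.34 ± 0.92 at 4 weeks and 2.59 ± 0.83 at 12 weeks, neither called. At 4 weeks 1 WT (9.95 CPM) and 1 KO library (7.003 CPM) were also above 5 CPM beside the HET libraries named above. The part of striatal RNA in these values was not tested.

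Gpr6, the orphan receptor gene of the striatum, followed the regional pattern of Adora2a at a lower level. Its WT level in striatum was 114 ± 20.5 CPM at 4 weeks and 121 ± 17.0 CPM at 12 weeks (SD, n = 5). Elsewhere its WT means were between 0.0965 CPM in 12-week thalamus and 1.49 CPM in 4-week somatosensory cortex. On the log2 scale striatum exceeded the averaged others by 7.25 ± 0.32 (SE) at 4 weeks and 7.47 ± 0.20 at 12 weeks (edgeR adjusted p = 2.41e-18 and 3.05e-23). In thalamus it was too low to pass the filter on low counts, so it was tested between genotypes in 10 of the 12 sets of region and age.

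Gpr6 was not called between genotypes in striatum. At 12 weeks the WT libraries stood at 100.1, 106, 126, 133 and 139 CPM. The KO libraries stood at 95.9, 97.5, 100.2, 101 and 129 CPM. The KO libraries lay at the low end of the WT range, with KO 4 apart at 129 CPM. The log2 fold change was -0.22 ± 0.10 (SE, unadjusted p = 0.0404, edgeR adjusted p = 0.283). At 4 weeks the WT libraries stood at 92.3, 104, 108, 119 and 146 CPM, and the KO libraries at 54.7 (KO 161), 60.3 (KO 51), 81.1 (KO 163), 109 (KO 932) and 128 CPM (KO 12). The low KO libraries were again those with high cortical markers. The log2 fold change was -0.40 ± 0.19 (edgeR adjusted p = 0.299), and 0.03 ± 0.15 without the 4 libraries.

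Gpr12, a relative of Gpr6, was highest in thalamus, at 51.8 ± 13.9 CPM at 4 weeks (SD, n = 6) and 52.8 ± 2.29 CPM at 12 weeks (n = 5). Thalamus was above the next region at both ages (edgeR adjusted p = 0.00197 against hippocampus at 4 weeks and 1.57e-07 against striatum at 12 weeks). Hippocampus, somatosensory cortex and striatum formed a middle group of 27.1 ± 4.47 (n = 6), 24.5 ± 1.64 and 22.3 ± 2.91 CPM (n = 5 each) at 4 weeks, with no neighbours called apart. Prefrontal cortex and substantia nigra were lowest, at 11.2 ± 1.51 and 11.0 ± 0.532 CPM at 12 weeks (n = 5 each), and were not called apart at either age.

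Striatal Gpr12 was higher at 12 than at 4 weeks in WT. The WT libraries stood at 17.5, 22.3, 22.8, 23.7 and 25.2 CPM at 4 weeks and at 28.3, 28.4, 30.8, 38.1 and 39.6 CPM at 12 weeks. The log2 difference was 0.60 ± 0.12 (SE, edgeR adjusted p = 0.00707), and 13.6% of all genes were called in that comparison. Striatum was accordingly called above the averaged other regions at 12 weeks, by 0.65 ± 0.07 on the log2 scale (edgeR adjusted p = 7.03e-10), and not at 4 weeks, where the difference was 0.02 ± 0.20. Genotype made no called difference in striatal Gpr12, with log2 fold changes of KO against WT of 0.10 ± 0.11 at 4 weeks (0.11 ± 0.12 without the 4 libraries) and 0.04 ± 0.10 at 12 weeks.

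In thalamus Gpr12 stood at 50.2, 51.7, 52.5, 53.2 and 56.3 CPM in the 12-week WT libraries. The KO libraries stood at 55.0, 58.2, 61.6, 62.3 and 69.0 CPM and the HET libraries at 52.6, 58.2, 64.1, 64.2 and 70.0 CPM. Both mutant groups lay mostly above WT, each with 1 library within the WT range. The log2 fold changes were 0.22 ± 0.07 for KO (unadjusted p = 0.00621, edgeR adjusted p = 0.496) and 0.23 ± 0.07 for HET (unadjusted p = 0.00505, edgeR adjusted p = 0.39), neither called. At 4 weeks they were 0.27 ± 0.14 and 0.32 ± 0.14, also not called. The 4-week WT libraries were widely spread, from 31.6 to 66.3 CPM. They include the thalamic libraries listed as doubted in the account of the processing, and values without those are not given here. The comparisons share their WT libraries. The thalamic neuron score, the mean over 5 genes, moved with Gpr12: at 12 weeks the KO libraries ranged from 9.06 to 9.24 and the HET libraries from 8.97 to 9.26, against 8.83 to 9.003 for WT. Its 4-week medians were 9.24 for KO, 9.35 for HET and 9.0004 for WT. None of the 5 genes was called, and their part in the Gpr12 values was not tested.

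Gpr3, the third member of the orphan family, was low in every region, with called differences in 6 of the 15 pairs of regions at 4 weeks and 7 at 12 weeks. Its highest WT mean was in thalamus, at 12.5 ± 4.10 CPM (SD, n = 6) at 4 weeks and 11.9 ± 4.56 CPM (n = 5) at 12 weeks. Its lowest was in hippocampus, at 5.37 ± 1.72 CPM (n = 6) and 4.25 ± 0.764 CPM (n = 5). No 2 neighbouring regions in the order were called apart at either age. Striatum was below the averaged other regions by log2 differences of -0.41 ± 0.18 (SE) and -0.47 ± 0.21, just outside the threshold (edgeR adjusted p = 0.0575 and 0.0501), and DESeq2 called both (adjusted p = 0.0427 and 0.0424).

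In the 4-week cortex Gpr3 was lower in KO libraries without being called by edgeR. In somatosensory cortex the WT libraries stood at 8.63, 10.5, 11.8, 11.8 and 12.7 CPM. The HET libraries ranged from 8.33 through a median of 9.07 to 11.4 CPM. The KO libraries stood at 4.74, 5.54, 6.43, 7.15 and 9.23 CPM. All but KO 163 lay below every WT and HET library. Between KO and WT this was a log2 fold change of -0.75 ± 0.15 (SE, unadjusted p = 7.62e-05, edgeR adjusted p = 0.0891). DESeq2 gave an adjusted p of 0.00117, and edgeR called it without KO 163 (-0.90, adjusted p = 0.00781) or without WT 142 (-0.83, adjusted p = 0.0194).

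In 4-week prefrontal cortex the WT libraries stood at 8.25, 8.44, 9.61, 10.9 and 11.0 CPM of Gpr3. The KO libraries stood at 4.20, 4.35, 4.65, 5.89 and 9.55 CPM. All but KO 44 lay below WT. The log2 fold change was -0.75 ± 0.20 (edgeR adjusted p = 0.198, DESeq2 adjusted p = 0.0433), and -1.01 without KO 44 (edgeR adjusted p = 0.0117). The same replicate numbers recur across regions, so the cortical sets are not known to be independent.

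At 12 weeks the KO and WT libraries overlapped in both cortices, with Gpr3 log2 fold changes of 0.29 ± 0.20 in somatosensory and 0.03 ± 0.33 in prefrontal cortex. The difference between the ages in somatosensory cortex was 1.05 ± 0.26 (SE, unadjusted p = 0.000353), not called after adjustment over all genes (edgeR adjusted p = 1). Gpr3 overlaps Cd164l2 on the other strand, which averaged 2.97 ± 0.380 CPM in WT and 3.10 ± 0.654 CPM in KO 4-week somatosensory cortex (SD, n = 5). In striatum Gpr3 had log2 fold changes of -0.14 ± 0.21 at 4 weeks (-0.28 ± 0.30 without the 4 libraries) and -0.01 ± 0.27 at 12 weeks, none called.

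Outside striatum no member was called between KO and WT by edgeR in 48 tests, against 0.018% of all tests of all genes called there. Of the 48 tests, 7 had an unadjusted p under 0.05. Among all genes 479 of 16438 (12-week hippocampus) to 2415 of 15970 (4-week prefrontal cortex) had such a p in these sets. DESeq2 called 3, namely Gpr3 in both 4-week cortices and Adora2a in 4-week hippocampus, in sets where it called 45 genes (somatosensory cortex), 135 (prefrontal cortex) and 14 (hippocampus). Between HET and WT 0 of 58 tests of the members were called by edgeR, against 0.00521% of all tests of all genes. Of the 58 tests, 8 had an unadjusted p under 0.05. Among all genes 263 of 15893 (12-week somatosensory cortex) to 2551 of 15654 (4-week thalamus) had such a p. DESeq2 called 1, Adora1 in 4-week thalamus, higher in HET by 0.30 on the log2 scale (adjusted p = 0.0269), in a set where it called 415 genes. That set holds the doubted thalamic WT libraries, and the value without them is not given here. Between KO and HET edgeR called 1 of 58, Adora1 in 12-week striatum, where 4.79% of all genes were called, against 0.0106% of all tests outside striatum.

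**Figure D5:**
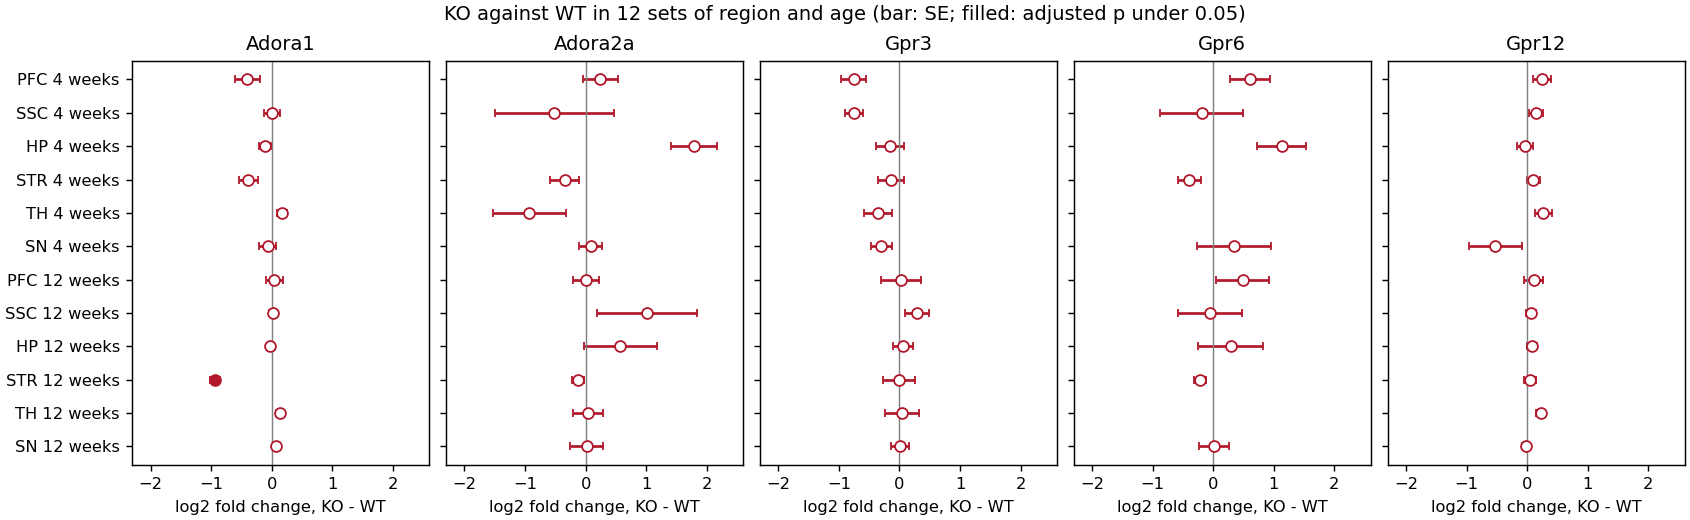
Log2 fold change of KO against WT for each receptor gene in the 12 sets of region and age, with the SE as a bar and a filled point where the edgeR adjusted p was under 0.05. Adora1 in 12-week striatum, at -0.94, is the single filled point, and Gpr6 has no point in thalamus, where it was not tested.

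With age, 4 of 29 tests of the members in WT libraries were called, 1 higher and 3 lower at 12 weeks, against 13.6% of all tests of all genes, with 22.8% in somatosensory and 13.8% in prefrontal cortex. Beside Gpr12 in striatum these were Gpr3 in somatosensory cortex (-0.70 ± 0.18, SE, edgeR adjusted p = 0.0124), Adora2a in somatosensory cortex (-1.69 ± 0.39, adjusted p = 0.00794) and Adora1 in prefrontal cortex (-0.36 ± 0.11, adjusted p = 0.045). Gpr3 in WT somatosensory cortex stood at 3.84, 6.11, 7.23, 7.34 and 9.34 CPM at 12 weeks, overlapping the 4-week values given above. Adora2a there stood at 1.81, 2.11, 2.56, 4.53 and 9.95 CPM at 4 weeks and 1.00, 1.21, 1.26, 1.51 and 1.57 CPM at 12 weeks. The highest, WT 23, also had the highest striatal projection neuron score of its group, 5.94 against 5.26 to 5.53, and without it the difference was -1.08. The Adora1 call was lost when any 1 of the 10 libraries but WT 913 of 4 weeks was left out, with edgeR adjusted p-values up to 0.109. Age and the set of libraries made at each age cannot be told apart.

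Over the 63 WT libraries, Adora2a and Gpr6 followed each other, with a Pearson r of log2(CPM + 1) of 0.97, as a description of libraries that share regions and replicate numbers. The 3 genes most like Adora2a among 14085 genes averaging at least 1 CPM were Sh3rf2 (r = 0.99), Cd4 (0.98) and RP23-21B1.4 (0.98), and those most like Gpr6 were Cd4 (0.99), Sh3rf2 (0.98) and Ido1 (0.98). Those most like Adora1 were Brinp1 (0.91), Camta2 (0.89) and Kif1bp (0.86). Gpr12 was most like Tiam1 (0.89), 4921524J17Rik (0.85) and Map3k14 (0.85). Gpr3 had the weakest matches, Ppp2r5b (0.76), Pitpnm1 (0.76) and Trpm2 (0.76). The adenosine receptor genes were not alike, with r = -0.16 between Adora1 and Adora2a.

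Most genes around these receptors did not pass the test in striatum. Of 46 listed genes for adenosine handling, G proteins, adenylyl cyclases, phosphodiesterases, PKA and other striatal receptors, 45 were tested. At 4 weeks 1 was higher in KO than in WT and 1 lower, with a median log2 fold change of -0.09 over the list against 0.00 over all genes. These 2 of 45 stand beside 3.35% of all genes called. At 12 weeks 1 was higher and 2 were lower, with a median of -0.01 against 0.01, and these 3 of 45 stand beside 4.42% of all genes called. Both counts are near the background. Without the 4 libraries of 4-week striatum 1 was higher and none lower, with a median of 0.12 against -0.02. Adcy1, a calcium-activated adenylyl cyclase that makes cyclic AMP, rose at both ages, by 0.80 ± 0.14 (SE, edgeR adjusted p = 0.00541) and 0.63 ± 0.10 (adjusted p = 0.00164), and at 4 weeks by 0.82 ± 0.15 without the 4 libraries (edgeR adjusted p = 0.011). Akap5, another anchoring protein of PKA, was lower at 4 weeks (-0.55 ± 0.12, edgeR adjusted p = 0.0182), a call lost without them (-0.30 ± 0.12, adjusted p = 0.238). Pde10a and Pde2a, phosphodiesterases that break cyclic nucleotides down, were lower at 12 weeks (-0.43 ± 0.11, edgeR adjusted p = 0.0374, and -0.29 ± 0.06, adjusted p = 0.011).

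The remaining adenosine receptor genes, Adora2b and Adora3, had striatal log2 fold changes of -0.12 ± 0.21 and -0.16 ± 0.23 at 4 weeks (-0.31 and -0.18 without the 4 libraries) and of 0.07 ± 0.22 and -0.02 ± 0.25 at 12 weeks, none called. Of the 11 tested genes that carry, make or break down adenosine or receive it, 0 were called by edgeR between KO and WT in striatum at either age. At one age 3 of them had an unadjusted p under 0.05. Of all genes 2755 of 15425 at 4 weeks and 2485 of 15622 at 12 weeks had such a p. The 5 tested markers of indirect-pathway neurons, the cells in which Adora2a is known, included 2 lower at 12 weeks, Ptprm (-0.36 ± 0.07, SE) and Grik3 (-0.31 ± 0.06), with a median of -0.19 over the list, where 2.6% of all genes were called lower. Drd2 was at -0.19 ± 0.10 and Penk at 0.20 ± 0.08, neither called, while the direct-pathway score was higher in the same KO libraries, as given above.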

How the data were processed

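RNA came from regions dissected from frozen brain in a cryostat and went into stranded mRNA libraries, per the labels' protocols. Reads were quantified with Salmon against mm10, per the submitters' processing notes. The authors deposited expected counts per gene symbol, 1 column for each of 186 libraries (0 columns had no sample). The sources used here do not give the annotation or the use of strand. Library totals ran from 20.8 to 73.3 M, median 45.1, and Gpr6 outside striatum rests on few counts.

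The expected counts were rounded. Each set of 1 region and age was fitted with edgeR 4.0.16 in R 4.3.3 (filterByExpr, TMM, quasi-likelihood test). WT regions, WT ages and the interactions were fitted over the libraries they compare. P-values were adjusted by Benjamini-Hochberg over all genes of a comparison, and a call is an adjusted p under 0.05. Printed CPM used TMM factors over all 186 libraries. The procedure was tested on simulated data. Replicates were checked for duplicates: the closest of 390 pairs differed by a chi-square of 7.97 per degree of freedom.

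Alternatives were other size factors, no filter, DESeq2 1.42.0, limma 3.58.1 with a replicate block, a cortical marker covariate, and leaving out doubted libraries (4-week striatum KO 51, KO 161, KO 163 and WT 92, thalamus WT 913, WT 914 and WT 23, substantia nigra WT 42, WT 92, KO 44 and KO 91; for the gene lists and interactions an alternative chosen after seeing the data), libraries with few whole-number values, or 1 library at a time. The listed members were named throughout, with the 3 genes most alike to each, the pathway genes called in striatum, and Adora2b and Adora3. Mybph, Cd164l2 and the marker genes were named outside that rule, after their values were seen. The members and gene lists were chosen with earlier results of these data known.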

Additional observations from a re-analysis of the deposited data

Results flagged for a closer look

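Single libraries stood apart from their group, by Dixon's test at 95%, in 13 of 167 groups of members tested, where chance gives about 1 in 20. For Adora1 this was WT 913 of 4-week prefrontal cortex, at 201 CPM against 282 to 305 in the others. For Adora2a it was WT 914 of 4-week hippocampus (4.79 CPM against 1.41 to 2.22), KO 4 of 12-week hippocampus (19.9 against 3.01 to 7.17), HET 941 of 4-week prefrontal cortex (0.663 against 1.98 to 2.64), KO 51 of 4-week somatosensory cortex (7.003 against 1.64 to 2.43), HET 5 of 12-week somatosensory cortex (33.1 against 1.26 to 1.93) and WT 914 of 4-week thalamus (18.5 against 1.59 to 2.07).

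For Gpr6 it was KO 4 of 12-week hippocampus (3.78 CPM against 0.857 to 1.502), HET 5 of 12-week somatosensory cortex (6.52 against 0.706 to 0.955) and KO 4 of 12-week striatum (129 against 95.9 to 101). KO 4 of hippocampus and HET 5 of somatosensory cortex stood apart in both Adora2a and Gpr6, with striatal projection neuron scores of 6.01 and 6.58. For Gpr12 it was 3 libraries of 4-week substantia nigra: HET 93 (5.35 CPM against 7.90 to 9.30), KO 91 (25.1 against 4.62 to 6.80) and WT 42 (32.1 against 7.50 to 16.2). KO 91 and WT 42 had thalamic marker scores of 7.88 and 8.29, and thalamus is the region highest in Gpr12. The part of neighbouring tissue in these values was not tested.

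The KO effect on Adora1 differed between striatum and the other 5 regions at 12 weeks, by -0.99 on the log2 scale in the test of that difference.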

How the results depend on the processing

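The fall of Adora1 in 12-week KO striatum kept its direction and its call under all 21 alternatives, from -0.99 to -0.89 on the log2 scale, and its excess over the other regions ranged from -1.04 to -0.93. With a replicate block it was -0.94 ± 0.07 (SE, adjusted p = 1.18e-05). The sources used here do not say whether equal replicate numbers mark paired libraries. Between genotypes at 12 weeks, 58 of 90 pairs of equal number had correlated deviations over 0.1 (median r = 0.15, from -0.34 to 0.73). Pairs of unequal number were not measured, so shared deviations between libraries of equal number remain possible. Gpr3, just outside the threshold between striatum and the other regions in WT, was called with the block (-0.34 at 4 and -0.47 at 12 weeks), with DESeq2 at both ages, without the doubted libraries at 4 weeks, and in 6 fits at each age that left out 1 library.

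In 4-week striatum 1 member, Adora1, was called with the cortical covariate and 1 without the doubted libraries. Between KO and WT in the other regions DESeq2 called 3 members, and leaving out 1 library gave 0 to 1. Between HET and WT DESeq2 called 1. Between KO and HET Adora1 in 4-week striatum was also called with the covariate (-0.56) and without the doubted libraries (-0.72), DESeq2 called 2 members, and leaving out 1 library gave 1 to 2: Adora2a in 4-week hippocampus without KO 163 or WT 914, or Gpr6 in 4-week striatum without KO 12. Without the doubted libraries the 4-week striatal values turned to 0.20 for Adora2a and 0.027 for Gpr6. Values near 0 changed sign. Gpr3 in 12-week striatum went to 0.013 with the covariate and 0.035 with the replicate block, and ranged from -0.19 to 0.13 when 1 library was left out. Gpr12 there ranged from -0.010 to 0.12, and between striatum and the other regions at 4 weeks from -0.027 to 0.11. The causes were not tested. Gpr6 outside striatum rests on few counts.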
